A study of Rattus norvegicus with 14 samples.

Results

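Members of the p53 response, the Gadd45 stress family and Myc were followed in rat liver as 10 listed genes: Cdkn1a, Phlda3, Ccng1, Mdm2, Bax, Btg2, Tp53inp1, Gadd45a, Gadd45b and Myc. Each was read from the probes that the platform annotation gives to that gene alone, and from the brightest one where there were several. In this way 9 of the 10 listed genes were measured, out of 14506 genes in all, and Btg2 was not analysed here. The animals were 14 lean female Zucker rats of about 15 weeks, all heterozygous for the fa allele of the leptin receptor gene (fa/+), so that controls and treated rats carried the same genotype. The 7 control rats ate a standard diet for 64 days, and 7 rats ate that diet with 0.05% by weight of a rosemary extract containing 40% carnosic acid, an antioxidant diterpene. Total liver RNA of each rat was hybridised to 1 whole-transcript array. The values are log2 RMA values, in which a difference of 1 is a doubling of signal.

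The transcription factor p53 is stabilised by DNA damage and other stresses and switches on genes that stop the cell cycle, repair DNA or trigger cell death. One of these, Mdm2, encodes the ubiquitin ligase that destroys p53 and so closes a negative feedback loop. The GADD45 proteins are small stress sensors that bind cell cycle regulators and activate the MAP kinase kinase kinase MAP3K4. MYC is a transcription factor that drives growth and ribosome production, and it can repress Cdkn1a. In liver, both Myc and Gadd45b are known as early response genes of regeneration, and Gadd45b is known to be induced by activators of the nuclear receptor CAR.

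The members split in opposite directions. In limma's moderated test with Benjamini-Hochberg adjustment over all 14506 genes, 3 of the 9 measured genes fell (Cdkn1a, Phlda3 and Ccng1), 2 rose (Gadd45b and Myc) and 4 did not pass. Over all genes, 3.15% were called, 1.15% as lower and 2% as higher. In a test that gives each gene its own unequal variances, 3 members passed (Phlda3, Ccng1 and Myc), beside 1.56% of all genes. The median log2 fold of the 9 was -0.0097, beside -0.00088 over all genes, and the folds ran from -0.77 to 0.94. These genes were picked with earlier results of the same arrays known, so the share called says nothing independent about them. All 9 were measured above the median gene, whose mean was 6.09.

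**Figure D1:**
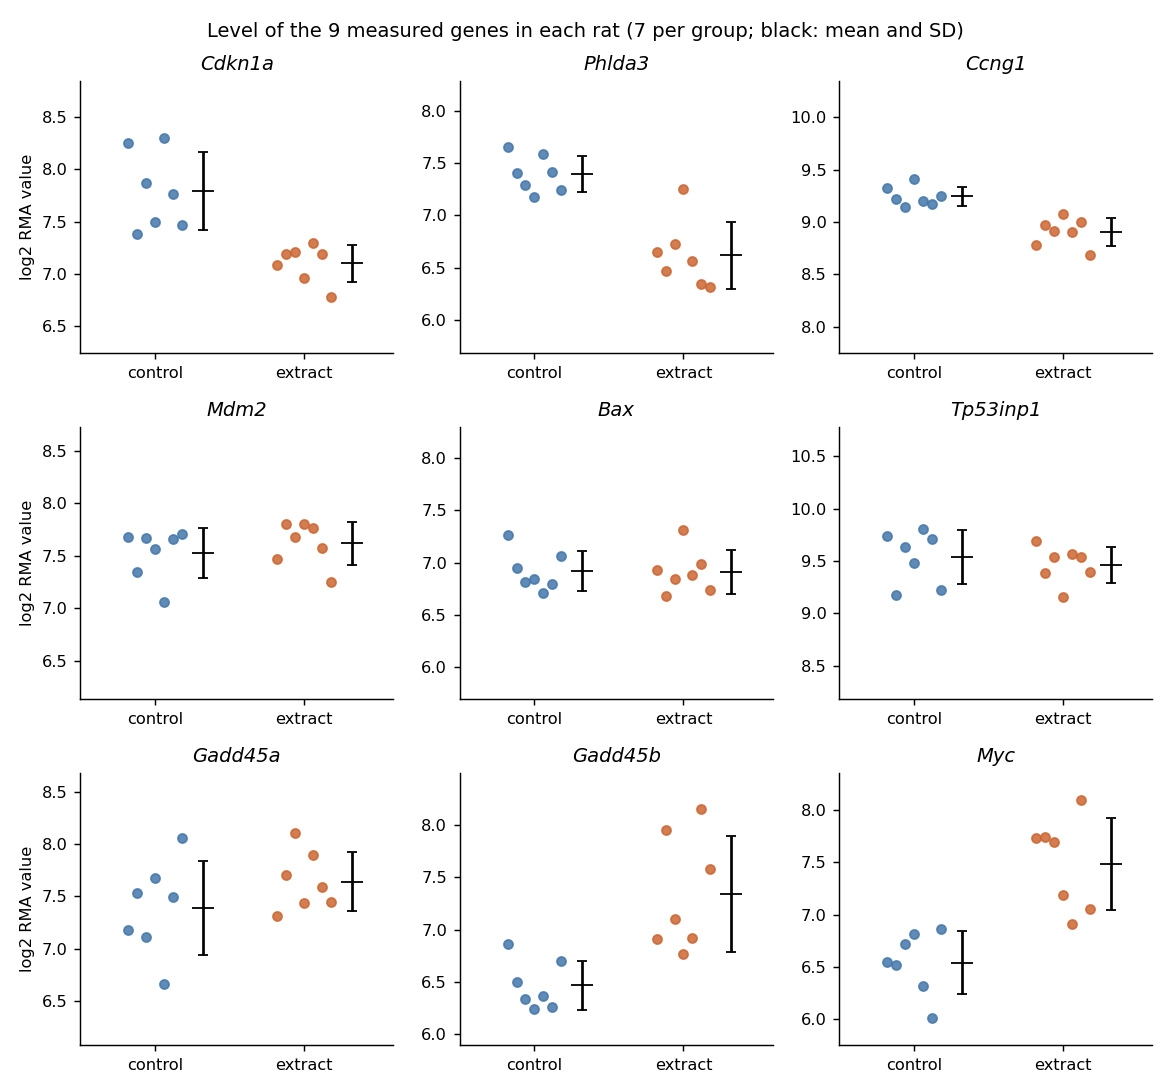
Level of the 9 measured genes in each rat, as log2 RMA values on the vertical axis; each panel spans the same range of log2 units, each point is a rat and the black bar gives the mean and SD of 7 rats. Cdkn1a and Ccng1 show 7 extract rats below all controls and Myc 7 above, while Phlda3 and Gadd45b overlap through a single extract rat.

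Cdkn1a encodes p21, the cyclin-dependent kinase inhibitor that carries much of the cell cycle arrest caused by p53. In control rats it ranged from 7.38 to 8.30 with a median of 7.76, and in extract rats from 6.78 to 7.30 with a median of 7.19. The groups did not overlap, since the highest extract rat (rat 5) lay below the lowest control (rat 2). The mean went from 7.79 ± 0.37 to 7.10 ± 0.18 (SD, n = 7 each), which is 1.61-fold lower (log2 fold -0.69 ± 0.14 SE, limma adjusted p = 0.00811). Control rats 1 and 5 stood highest, at 8.25 and 8.30, and the spread was wider in controls than in extract rats. In an unequal-variance test per gene Cdkn1a did not pass (adjusted p = 0.082).

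Phlda3 encodes a small pleckstrin homology domain protein that p53 induces and that competes with the kinase AKT for membrane lipids. Its level ran from 7.17 to 7.65 with a median of 7.40 in control rats, and from 6.32 to 7.25 with a median of 6.57 in extract rats. In all, 6 extract rats lay below every control, and extract rat 4 alone, at 7.25, lay inside the control range. The mean fell from 7.39 ± 0.17 to 6.62 ± 0.32 (SD, n = 7 each), or 1.71-fold (log2 fold -0.77 ± 0.12 SE, limma adjusted p = 0.00114). Without extract rat 4 the log2 fold was -0.88.

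Ccng1 encodes cyclin G1, a p53 target that recruits the phosphatase PP2A to MDM2. Of the genes that fell it had the smallest change. Control rats ran from 9.14 to 9.40 with a median of 9.22, and extract rats from 8.68 to 9.07 with a median of 8.91. Again the groups did not overlap. The mean fell from 9.24 ± 0.09 to 8.90 ± 0.13 (SD, n = 7 each), or 1.27-fold (log2 fold -0.34 ± 0.07 SE, limma adjusted p = 0.00899). The groups did not overlap for 3 of the 9 members (Cdkn1a, Ccng1 and Myc), beside 1.54% of all genes, and 0.455% of all genes lay lower in every extract rat than in any control.

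The stretches upstream of Cdkn1a, Phlda3 and Ccng1 are shown because these genes fell together. They were taken from RefSeq promoters on GRCr8, where 7 of the 10 listed genes have an entry (not Bax, Tp53inp1 and Myc), and only bases ahead of the annotated gene are printed. The coordinates are chr20:7150682-7150819 on the plus strand for Cdkn1a, chr13:49744753-49745002 on the plus strand for Phlda3 and chr10:25684877-25685126 on the minus strand for Ccng1. Each is written 5′ to 3′ along the gene, and capitals mark matches to the motifs searched:
Cdkn1a: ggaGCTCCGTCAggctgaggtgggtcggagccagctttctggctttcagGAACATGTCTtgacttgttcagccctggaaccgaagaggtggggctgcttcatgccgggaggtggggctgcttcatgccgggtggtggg
Phlda3: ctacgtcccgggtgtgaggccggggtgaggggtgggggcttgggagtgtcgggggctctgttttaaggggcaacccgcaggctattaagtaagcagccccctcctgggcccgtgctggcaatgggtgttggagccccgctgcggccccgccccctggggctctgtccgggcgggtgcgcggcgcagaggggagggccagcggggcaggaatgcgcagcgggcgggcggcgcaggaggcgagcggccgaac
Ccng1: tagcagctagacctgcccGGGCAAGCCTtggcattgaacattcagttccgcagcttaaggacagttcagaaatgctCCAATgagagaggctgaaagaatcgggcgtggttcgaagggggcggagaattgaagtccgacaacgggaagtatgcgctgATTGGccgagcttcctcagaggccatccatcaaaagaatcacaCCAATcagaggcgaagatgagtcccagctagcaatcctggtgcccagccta

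A set of 6 motifs was searched on both strands of the promoter window around each start site. Positions count from the start site of the promoter entry. For Cdkn1a that site lies inside the annotated gene, so the 138 bases printed above end short of it. A match to the p53 half-site consensus stood in Cdkn1a (GAACATGTCT, bases -201 to -192 from the start site) and in Ccng1 (GGGCAAGCCT, bases -232 to -223), and no match in Phlda3. Among the 7 members with an entry, 3 held such a match, Gadd45a being the third, as did 7.89% of 27457 promoters of the same length. The antioxidant response core TGACNNNGC matched in Cdkn1a and Gadd45a, against 12.2% of all promoters. The MYC E-box CACGTG matched in Gadd45b only, at bases -178 to -173, against 6.65% of all. CCAAT boxes stood in 5 of the 7, with 3 in Ccng1, against 37.7% of all; TGANTCA (AP-1) and TATAAA matched in 0 of the 7, against 7.33% and 14.3%. The matches did not overlap, except that the antioxidant core of Gadd45a shares bases with its CCAAT box. A match is a run of letters in this window and was not tested as a binding site, and functional p53 sites often lie farther away or within introns.

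The other measured p53 targets did not pass, and their groups overlapped. Mdm2 ranged from 7.06 to 7.71 in control rats and from 7.25 to 7.80 in extract rats, with medians of 7.66 and 7.68. Its log2 fold was 0.09 ± 0.11 SE (limma adjusted p = 0.78). Bax, a pore-forming protein of mitochondrial cell death, ranged from 6.71 to 7.26 in controls and from 6.68 to 7.32 in extract rats (log2 fold -0.0097 ± 0.0998 SE, limma adjusted p = 0.98). The sign of the Bax value turned after median centring (0.02). A second, dimmer Bax probe, which averaged 6.06 in controls and 5.97 in extract rats, had a log2 fold of -0.09. Tp53inp1, a stress protein that promotes p53 activity and autophagy, ranged from 9.17 to 9.81 and from 9.16 to 9.69 (log2 fold -0.07 ± 0.11 SE, limma adjusted p = 0.84). These values show no difference larger than the spread between rats, with standard errors close to that of Cdkn1a and Phlda3.

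Of 27 further p53 targets measured, 1 rose, 0 fell and 26 did not pass in limma (4 had an unadjusted p under 0.05, and the unequal-variance test called 1). Their median log2 fold was -0.01. Over all genes, 2154 of 14506 had an unadjusted p under 0.05, so that 4 of 27 is close to the share over all genes. Slc19a2, a thiamine transporter, rose from 10.14 ± 0.08 to 10.39 ± 0.08 (SD, n = 7 each; log2 fold 0.24, limma adjusted p = 0.029), with all 7 extract rats above all controls. Removing any one of controls 3 and 4 or extract rats 1, 3, 5, 6 and 7 raised its adjusted p to between 0.051 and 0.071. Rrm2b, chosen after its values were seen, had the largest log2 fold of the 27 (0.44, limma adjusted p = 0.068). In it 6 extract rats lay above all controls. The list's count of higher genes was 2 after median centring or repeated quantile normalization, and with array weights. It was also 2 at an adjusted p of 0.1 and without extract rat 4. With an intensity trend, or with the rat number as a replicate block, it was 0. Among 14 genes that regulate p53, 2 fell and 12 did not pass. The DNA damage checkpoint kinase Chek1 fell from 5.67 ± 0.14 to 5.20 ± 0.18 (SD, n = 7 each; log2 fold -0.47, limma adjusted p = 0.00389), below all controls in all 7 extract rats. Its mean in extract rats was close to that of the median probe on control arrays, 5.10. Daxx, a histone chaperone that also binds p53 and MDM2, fell from 7.43 ± 0.14 to 7.07 ± 0.14 (SD, n = 7 each; log2 fold -0.35, limma adjusted p = 0.014). Mdm4, the partner of MDM2, had a log2 fold of -0.04 and Atm, the kinase that senses DNA breaks, of -0.02; neither passed, and both were chosen after their values were seen.

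Among relatives of the members, 2 of 12 measured genes fell and 10 did not pass; the unequal-variance test called 0. Ccng2, which encodes cyclin G2, had a log2 fold of -0.40 (limma adjusted p = 0.043), and Phlda2, a placental growth regulator in the family of Phlda3, of -0.64 (limma adjusted p = 0.0496). Ccng2 passed in only 3 of 14 fits that omit a rat (control 4, control 5 and extract 7), with an adjusted p of 0.052 to 0.091 in the remaining 11. Phlda2 likewise passed in 3 (omitting control 5, extract 2 or extract 7) and had 0.059 to 0.10 in the remaining 11. Phlda1 (log2 fold 0.07) and the kinase inhibitor Cdkn1b (0.05) did not pass. Of 17 cyclins, kinases and inhibitors of the G1 phase, 1 rose: Cdkn2c, an inhibitor of CDK4 and CDK6, from 5.25 ± 0.30 to 5.84 ± 0.36 (SD, n = 7 each; log2 fold 0.59, limma adjusted p = 0.042). The unequal-variance test called 0 of the 17. Cdkn2c passed in 4 of 14 fits that omit a rat (control 1, extract 1, extract 6 and extract 7), with 0.052 to 0.10 in the remaining 10. In the BCL2 family limma called 0 of 14 genes (4 with an unadjusted p under 0.05, 0 by the unequal-variance test). Hrk, which promotes cell death, had the smallest p (log2 fold 0.32, limma adjusted p = 0.072, or 0.025 when control rat 4 was omitted). In this family 1 gene was called higher after median centring, with the replicate block and without extract rat 4. With array weights, or at an adjusted p of 0.1, 2 were called higher, and without control rat 5, 1 was called lower. Limma called 0 of 17 proliferation genes (2 with an unadjusted p under 0.05, 0 by the unequal-variance test), 14 of which lay below the median gene. The smallest p there was that of Pcna, the DNA polymerase clamp (log2 fold 0.31, adjusted p = 0.18).

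Gadd45b, a stress gene induced by inflammatory and growth signals, passed, and its relatives Gadd45a and Gadd45g did not. In control rats Gadd45b ranged from 6.25 to 6.87 with a median of 6.36, and in extract rats from 6.77 to 8.15 with a median of 7.10. In all, 6 extract rats lay above every control, while extract rat 4, at 6.77, lay below control rat 1. Extract rats 6, 2 and 7 were highest (8.15, 7.95 and 7.58), and the other 4 lay between 6.77 and 7.10. The mean rose from 6.47 ± 0.23 to 7.34 ± 0.55 (SD, n = 7 each), or 1.83-fold (log2 fold 0.87 ± 0.19 SE, limma adjusted p = 0.016). Without extract rat 4 the log2 fold was 0.97, and in the unequal-variance test Gadd45b did not pass (adjusted p = 0.13).

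Gadd45a, the family member that p53 induces, ranged from 6.66 to 8.06 in control rats and from 7.31 to 8.10 in extract rats, with medians of 7.50 and 7.59. It did not pass (log2 fold 0.25 ± 0.17 SE, limma adjusted p = 0.55). Gadd45g, the remaining paralogue, had a log2 fold of 0.27 ± 0.25 SE and did not pass either (limma adjusted p = 0.69). Whether the fold of Gadd45b differs from theirs was not tested. Of 11 stress kinases of the pathway that GADD45 proteins act on, limma called 0 (2 with an unadjusted p under 0.05; 0 by the unequal-variance test). The folds of 9 of the 11 were negative and the list's median was -0.11, and Map2k7, which activates JNK, had the smallest p (-0.22, adjusted p = 0.20).

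Myc was the member with the largest fold. Its level ran from 6.01 to 6.86 with a median of 6.55 in control rats, and from 6.91 to 8.10 with a median of 7.70 in extract rats. The groups did not overlap, although extract rat 5, at 6.91, lay close to control rat 7, at 6.86. The mean rose from 6.54 ± 0.30 to 7.49 ± 0.44 (SD, n = 7 each), or 1.92-fold (log2 fold 0.94 ± 0.17 SE, limma adjusted p = 0.00393). Extract rats 1, 2, 3 and 6 lay between 7.70 and 8.10 and rats 4, 5 and 7 between 6.91 and 7.19. Over all genes, 1.09% were higher in every extract rat than in any control.

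Most of the listed genes that MYC is known to activate leaned the same way by small amounts. Of 30 measured, 25 had a positive log2 fold, with a median of 0.15 beside -0.00088 over all genes, and 12 had an unadjusted p under 0.05. Among those 12, Ldha alone was lower with extract (log2 fold -0.26). The other negative folds of the list were those of Ccnd2 (-0.26), Cdk4 (-0.13), Hk2 (-0.06) and Hspe1 (-0.05). Whether the 30 genes move together from rat to rat was not tested, so the counts may not be of independent genes. Over all genes, 7215 of 14506 had a positive fold and 2154 of 14506 had an unadjusted p under 0.05. Only 2 rose and 28 did not pass in limma, and the unequal-variance test called 0. Limma called 0 when every probe was tested and 1 with an intensity trend. Pa2g4, a growth-regulated protein of ribosome assembly, rose from 9.36 ± 0.13 to 9.64 ± 0.12 (SD, n = 7 each; log2 fold 0.28, limma adjusted p = 0.044), and Hspd1, a mitochondrial chaperonin, had a log2 fold of 0.36 (limma adjusted p = 0.048). In fits that omit a rat, Pa2g4 passed in 3 of 14 (control 2, control 4 and extract 6) and Hspd1 in 3 of 14 (control 2, extract 4 and extract 5). In the remaining 11 fits of each, the adjusted p lay between 0.051 and 0.11 for Pa2g4 and between 0.056 and 0.11 for Hspd1. The median of the list stayed between 0.13 and 0.19 with each rat left out in turn. Averaged over the 30 genes, control rats ranged from 8.05 to 8.28 and extract rats from 8.23 to 8.44, with overlap. Among 9 genes listed as partners and antagonists of MYC, limma called 0 (1 with an unadjusted p under 0.05, 0 by the unequal-variance test). This list also holds Mlx and Mlxipl, which are related factors and not direct partners of MYC. The antagonist Mxd4 had the smallest p (log2 fold -0.28, limma adjusted p = 0.085, or 0.037 without extract rat 5). Of the 9 folds, 8 were negative, those of the partner Max (-0.11), Mlx (-0.08) and Mlxipl (-0.18) among them.

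Myc and Gadd45b are also stress-responsive early genes, so immediate early genes were set beside them. Lists of glucocorticoid-responsive genes and clock genes, which are of other kinds, are given as well. Of 21 immediate early genes limma called 0 (4 with an unadjusted p under 0.05, and 1, Klf6, by the unequal-variance test), with a median log2 fold of 0.02. Klf6, a zinc finger factor, had the smallest p (log2 fold 0.21, limma adjusted p = 0.075, or 0.0498 without control rat 6). Klf6 also passed in limma after median centring (adjusted p = 0.032), after repeated quantile normalization (0.019) and with array weights (0.033). Without control rat 1, 1 gene of this list was called lower. Of 15 genes that respond to glucocorticoids, 1 fell and 14 did not pass: Sgk1, a serum- and hormone-induced kinase, went from 9.14 ± 0.09 to 8.64 ± 0.21 (SD, n = 7 each; log2 fold -0.50, limma adjusted p = 0.00223). Limma called 0 of 15 clock genes (3 with an unadjusted p under 0.05; 0 by the unequal-variance test), but 2 as lower without control rat 1 and 2 with array weights. Per2, a clock repressor, had the smallest p (log2 fold -0.72, adjusted p = 0.082), which was 0.013 when control rat 1 was omitted.

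**Figure D2:**
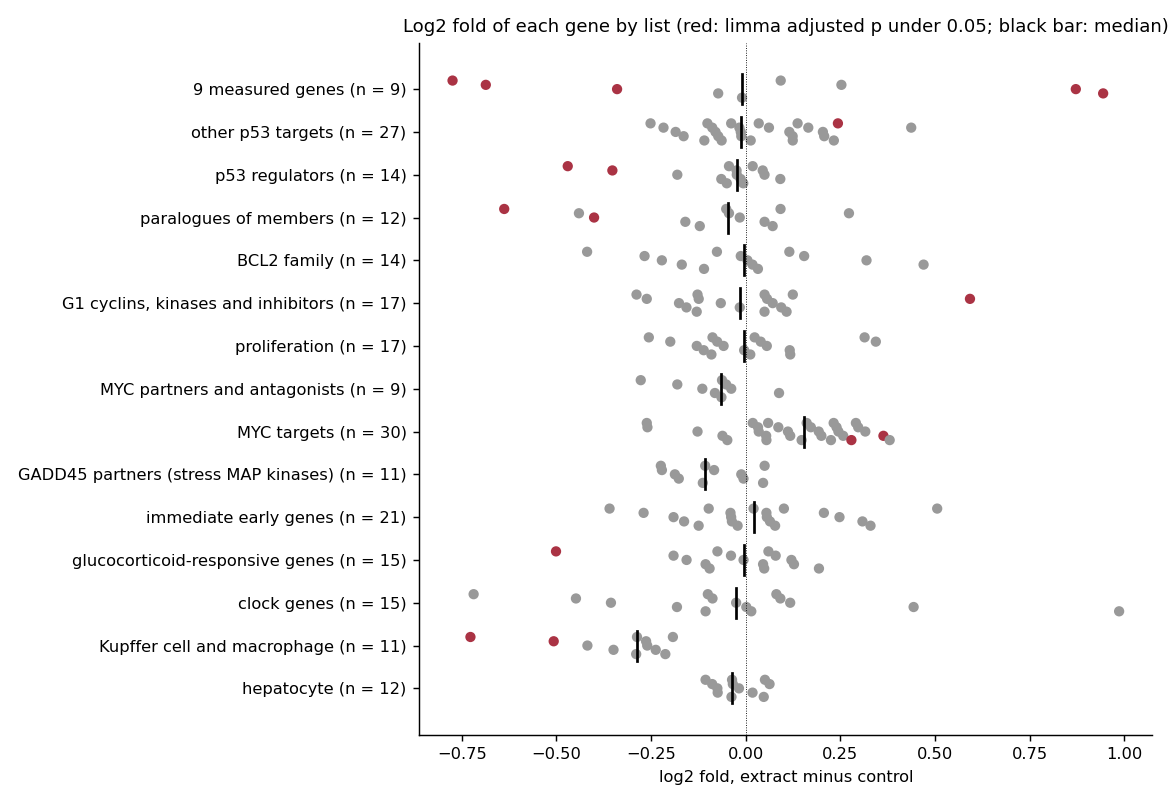
Log2 fold, extract minus control, of every measured gene in 15 gene lists; each point is a gene, red points passed limma's adjusted p of 0.05 and the black bar is the list's median. The 9 measured genes hold 5 red points on both sides of 0, while the 27 further p53 targets hold 1 and cluster around a median of -0.01; 30 MYC targets have a median of 0.15.

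The falling and rising genes were then compared rat by rat. Relative to the control mean, Cdkn1a, Phlda3 and Ccng1 were all lower and Gadd45b and Myc both higher in 7 of 7 extract rats, a combination found in 0 of 7 control rats. In 6 of the 7 extract rats, all 5 genes lay beyond every control in their own direction; the exception was extract rat 4. Since the genes were chosen for these directions, this is a description. The average deviation of the falling genes from the control mean ran from -0.88 in extract rat 7 to -0.38 in extract rat 4. For the rising genes it ran from 0.41 in extract rat 5 to 1.62 in extract rat 6. The rat with the deepest fall (rat 7, with a rise of 0.81) was therefore not the rat with the highest rise (rat 6, with a fall of -0.63).

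**Figure D3:**
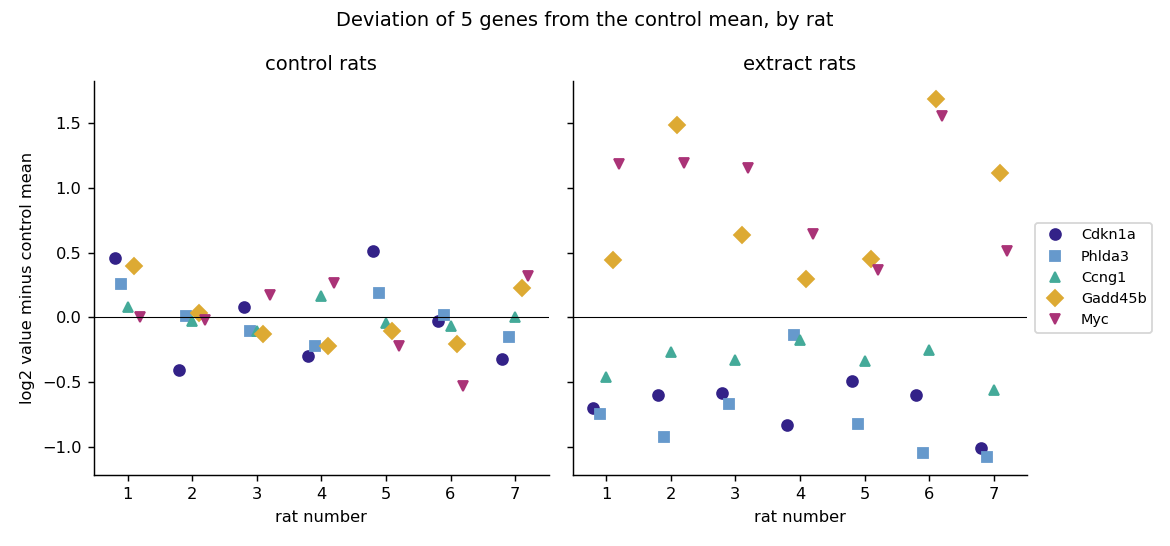
Deviation of 5 genes from their control mean in log2 units, for each of 7 control rats (left) and 7 extract rats (right); each symbol is a gene in a rat. In the extract rats Cdkn1a, Phlda3 and Ccng1 lie below 0 and Gadd45b and Myc above 0 in all 7, and the sizes vary from rat to rat without a common order.

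Within groups, the sizes of the falls and rises were not related beyond what 7 rats can resolve. Over 20 relations (10 pairs of the 5 genes, in each group of 7 rats), 0 passed an adjusted p of 0.05 by exact permutation over all pairings, two-sided, for Pearson's r or for Spearman's rho. The smallest adjusted p were 0.44 and 0.88, and 2 relations had an unadjusted exact p under 0.05 for r and 1 for rho. Between falling and rising genes, r ran from -0.56 to 0.46 in control rats and from -0.73 to 0.34 in extract rats, and 4 of 6 values were positive in each group.

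Among the pairs of a falling and a rising gene, the smallest unadjusted p was that of Phlda3 with Gadd45b in extract rats, where rats with less Phlda3 had more Gadd45b. Pearson's r was -0.73 (exact permutation p = 0.044, adjusted p = 0.44, n = 7) and Spearman's rho was -0.79 (exact permutation p = 0.048, adjusted p = 0.88, n = 7). Without the 2 rats farthest from the median of Phlda3, r was -0.86 over 5 rats. In control rats the same pair had r = 0.43 (exact permutation p = 0.32, adjusted p = 0.81, n = 7) and rho = 0.46 (exact permutation p = 0.30, adjusted p = 0.98, n = 7), and the difference between the groups was not tested. Without the 2 farthest control rats this r was -0.50, so that its sign rests on them.

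Cdkn1a and Myc, the pair in which MYC is known as a repressor, had r = -0.38 in control rats (exact permutation p = 0.39, adjusted p = 0.88, n = 7) and r = 0.34 in extract rats (exact permutation p = 0.45, adjusted p = 0.88, n = 7). The corresponding rho were -0.36 (exact permutation p = 0.44, adjusted p = 0.98, n = 7) and 0.00 (exact permutation p = 1, adjusted p = 1, n = 7). Without the 2 farthest rats the values of r were -0.36 and -0.67, so the sign in extract rats rests on 2 animals. Cdkn1a and Phlda3 rose and fell together among control rats (r = 0.80, exact permutation p = 0.038, adjusted p = 0.44, n = 7; rho = 0.64, exact permutation p = 0.14, adjusted p = 0.93, n = 7). Without the 2 farthest rats, which were the high controls 1 and 5, that r was 0.14, and in extract rats r was -0.08 (exact permutation p = 0.85, adjusted p = 0.94, n = 7). Gadd45b and Myc had r = 0.29 in control rats (exact permutation p = 0.53, adjusted p = 0.88, n = 7) and r = 0.55 in extract rats (exact permutation p = 0.19, adjusted p = 0.81, n = 7), with -0.19 in extract rats without the 2 farthest.

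**Figure D4:**
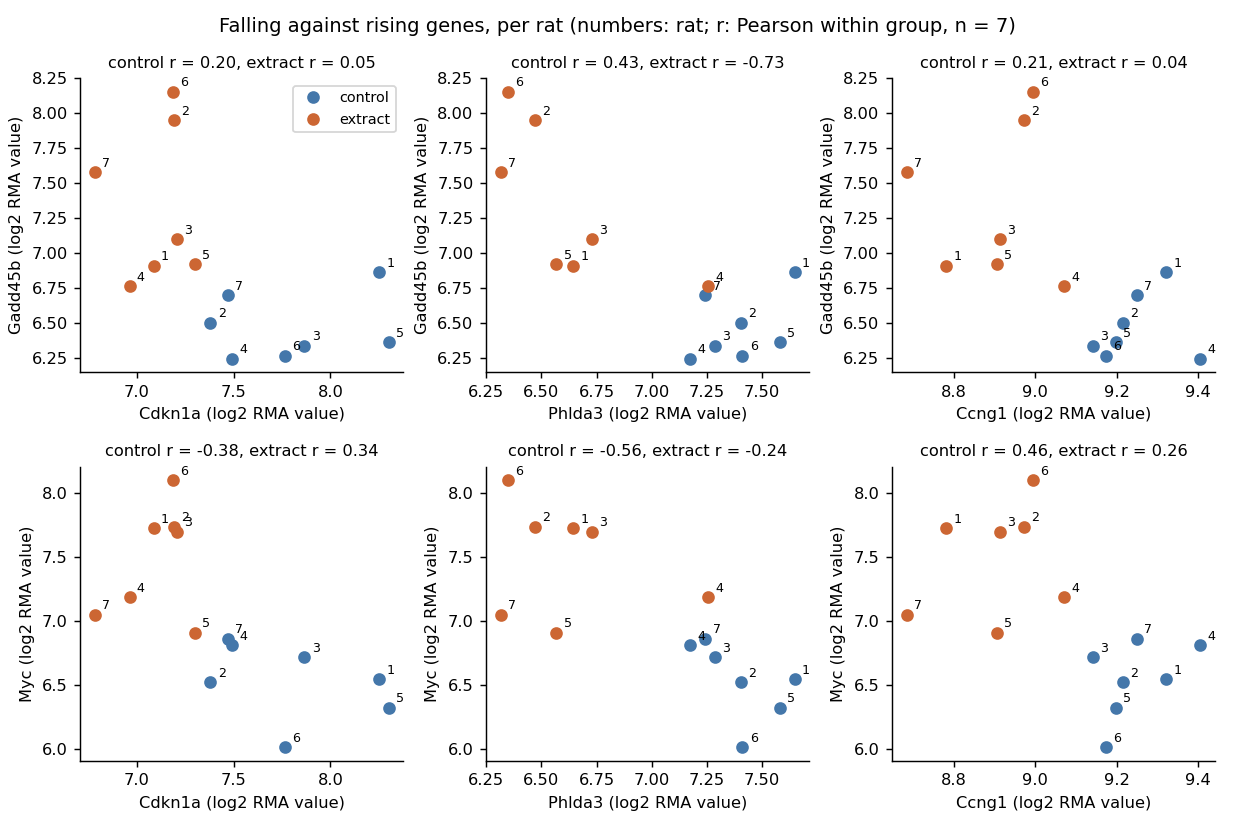
Levels of Cdkn1a, Phlda3 and Ccng1 (horizontal) against Gadd45b and Myc (vertical) in log2 RMA values, 1 point per rat with its number, blue for control and orange for extract, with Pearson's r within each group of 7. The groups stand apart in the panels except that of Phlda3 against Gadd45b, where extract rat 4 lies within the control range of both genes, and within groups r runs from -0.73 to 0.46.

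Genes whose levels followed each of the 5 most closely within both groups were ranked by the smaller of the 2 within-group values of Pearson's r, among 7252 other genes at or above the median gene's level. This is a description over 7 rats per group and was not set against chance. For Myc the closest were Fbxw4 (r of 0.88 in control and 0.90 in extract rats), Csmd1 (0.95 and 0.77) and Fbxo46 (0.78 and 0.75). Csmd1, a large complement-regulatory membrane protein, itself rose from 6.34 to 7.79 (log2 fold 1.46, limma adjusted p = 1.23e-05). Phlda3 was followed most closely by Pla1a (0.90 and 0.91), Hsd17b10 (0.87 and 0.86) and Slc25a11 (0.90 and 0.85), Cdkn1a by St3gal6 (0.81 and 0.82), Crbn (0.73 and 0.77) and Nipal2 (0.73 and 0.83). For Ccng1 the genes were Pno1 (0.83 and 0.76), Gnl3 (0.75 and 0.92) and Tmem165 (0.82 and 0.73), and for Gadd45b Cln8 (0.82 and 0.76), Sft2d1 (0.80 and 0.71) and Slpi (0.69 and 0.77). None of these 15 was itself among the 9 members. After median centring 9 of the 15 were still among the 3 closest of their gene, and after repeated quantile normalization 6 were; the 3 of Myc were kept under both.

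The arrays looked like liver, and the cell types around hepatocytes give the setting of these values. The 12 hepatocyte markers averaged 12.78 to 12.96 across arrays, and limma called 0 of them (0 with an unadjusted p under 0.05; 0 by the unequal-variance test). For Kupffer cells and macrophages, all 11 measured markers had a lower mean in extract rats, the median log2 fold being -0.29. Of these, 2 fell: Marco, a scavenger receptor (log2 fold -0.73, limma adjusted p = 0.00586), and Vsig4, a complement receptor (-0.51, limma adjusted p = 0.024), the latter lost without extract rat 1 or 2, in the unequal-variance test (adjusted p = 0.097) and when every probe was tested (0.054). Marco, with means of 6.14 in control and 5.41 in extract rats, was the 1 marker of the 11 below the median gene. The count of markers called lower was 5 without extract rat 7, 3 without control rat 3 or 4, and 1 without extract rat 1 or 2. Each filter on dim genes left 10 markers. The count was then 1 with a mean of at least 6 and 3 with at least that of the median gene. The unequal-variance test called 1, repeated quantile normalization gave 4, and an adjusted p of 0.1 gave 6. Over all genes 2154 of 14506 had an unadjusted p under 0.05, and 10 of these 11 markers did. Their average per array ranged from 8.78 to 9.01 in control rats and from 8.36 to 8.74 in extract rats, without overlap. The part of these cells in the member genes was not tested, and in whole tissue fewer cells of a type and less RNA per cell cannot be told apart. Of 6 endothelial markers, all with a negative log2 fold, limma called 0 (2 with an unadjusted p under 0.05; 0 by the unequal-variance test). Of 10 stellate cell and fibroblast markers 1 fell (Pdgfrb, 0 by the unequal-variance test), a count that ran from 0 to 2 with single rats left out. Of 6 bile duct markers 1 fell (Prom1, log2 fold -2.22; 1 by the unequal-variance test), while the other 5 had positive folds. Both genes were named after their values were seen. Limma called 0 of 10 lymphocyte, 0 of 6 neutrophil, 0 of 4 red cell and 0 of 6 exocrine pancreas markers (2, 1, 0 and 1 with an unadjusted p under 0.05, and 0 in each by the unequal-variance test). Lymphocyte markers averaged 4.87 to 5.15 across arrays, near the median probe. Arrays of control rat 1 and extract rat 4 had the lowest quality weights in limma (0.41 and 0.46, against at least 0.69 for the other arrays). Without both, the log2 folds of Cdkn1a, Phlda3, Ccng1, Gadd45b and Myc were -0.59, -0.84, -0.35, 1.03 and 1.00, and all 5 still passed.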

How the data were processed

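The authors deposited 1 table of log2 RMA expression values, with a column per rat and 29215 probes. The submitters' processing notes name Expression Console 1.1.2 (Affymetrix) and the RMA method; RMA options and a genome build are not given in the sources used here. The log2 scale was read from the values (1.95 to 14.0). RMA compresses folds near background. The sample labels give 0.05% extract where the series title gives 0.5%.

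Symbols came from GEO's platform annotation (15310 probes with 1 symbol, 323 with several, 13582 unnamed), checked through 15279 Entrez identifiers against the GRCr8 gene table. The brightest probe per gene was used without a filter. Groups were compared with limma 3.58.1 (lmFit, eBayes, two-sided, R 4.3.3) over 14506 genes at an adjusted p of 0.05; the number of arrays limits precision (median standard error 0.087). The unequal-variance test used each gene's own SDs. The procedure was tested on simulated data with independent normal noise. These had no correlation between genes and no differences in array quality. Figures used Python 3.11.15 and matplotlib 3.10.9.

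The members, the 12 pathway lists and 9 marker lists (273 of 318 entries measured) and the tests were chosen with earlier results of these data known. Named genes are the members, up to 4 passing genes per pathway list or its smallest p, chosen paralogues, and the 3 genes most like each of 5 members. The labels state separate rats. They do not state that rat numbers pair the groups.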

Additional observations from a re-analysis of the deposited data

How the results depend on the processing

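The calls of 3 members lower and 2 higher were kept with each of the 14 rats left out in turn, after median centring, repeated quantile normalization, both filters on dim genes, averaging all probes, testing every probe, an intensity trend, array weights, an adjusted p of 0.1 and, chosen after seeing the data, leaving out control rat 1 with extract rat 4. In the unequal-variance test 2 members were called lower and 1 higher, and for extract against control 227 genes passed in place of 457 (genes called higher 171, genes called lower 56). Array weights gave 694 calls (262 lower), an adjusted p of 0.1 gave 719 (291 lower), and leaving out single rats gave from 116 to 292 genes called lower, the most without control rat 1; the causes were not tested. With the rat number as a replicate block, 364 genes were called (235 higher and 129 lower), among them the same 3 and 2 members. Of the other genes named as called, Slc19a2, Daxx, Phlda2, Cdkn2c, Pa2g4 and Hspd1 did not pass with the block (adjusted p 0.074, 0.058, 0.051, 0.084, 0.055 and 0.054), nor did Pdgfrb, since 0 stellate markers passed. When every probe was tested in limma, Ccng2, Phlda2, Cdkn2c, Pa2g4 and Hspd1 did not pass (adjusted p 0.084, 0.10, 0.090, 0.074 and 0.091). With an intensity trend in limma, Slc19a2, Ccng2 and Pa2g4 did not pass (adjusted p 0.057, 0.0501 and 0.072). In both settings 0 stellate markers passed. Deviations of same-numbered rats had no common sign (r from -0.46 to 0.28, above 0.1 in 4 of 7 pairs). Of 7 control rats, 2 were closest to the extract rat of their own number. So few pairs cannot exclude a shared batch or pairing. The labels state neither, so the block pairs rats by number only. The sign of Bax turned after median centring (0.025) and quantile normalization (0.024) and ran from -0.077 to 0.047 with single rats left out; that of Tp53inp1 turned to 0.012 without control rat 1 and extract rat 4.

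No within-group correlation passed under any setting. In control rats, r of Cdkn1a with Ccng1 turned to 0.21 after median centring and 0.20 after quantile normalization, and r of Phlda3 with Ccng1 to 0.23 and 0.25. In extract rats, r of Cdkn1a with Gadd45b turned to -0.0081 and -0.064, and r of Cdkn1a with Phlda3 to 0.063 after quantile normalization. With 1 rat of each group left out in turn, r in control rats ran from -0.46 to 0.19 for Cdkn1a with Ccng1, from -0.37 to 0.43 for Cdkn1a with Gadd45b, from -0.57 to 0.50 for Phlda3 with Ccng1, from -0.094 to 0.71 for Phlda3 with Gadd45b, from -0.11 to 0.95 for Ccng1 with Gadd45b and from -0.012 to 0.55 for Gadd45b with Myc. In extract rats it ran from -0.31 to 0.84 for Cdkn1a with Ccng1, from -0.14 to 0.34 for Cdkn1a with Gadd45b (-0.073 without rat 2, -0.12 without rat 6), from -0.0087 to 0.89 for Cdkn1a with Myc, from -0.76 to 0.51 for Cdkn1a with Phlda3, from -0.52 to 0.051 for Phlda3 with Myc, from -0.22 to 0.40 for Ccng1 with Gadd45b (-0.12 without rat 1, -0.088 without rat 2) and from -0.10 to 0.54 for Ccng1 with Myc. The number of arrays limits these values.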
